A study of Mus musculus with 6 samples.

Results

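The subject is the Wnt signalling system at the RNA level in the injured Achilles tendon: 60 genes for Wnt ligands, receptors, secreted antagonists, R-spondins and target genes, chosen by name from a table of 21878 mouse genes. They comprised 18 ligands, 2 genes for ligand lipidation and export, 10 Frizzled receptors, 5 co-receptors, 11 secreted antagonists, 8 target and feedback genes, and 6 R-spondins and Lgr receptors, and all 60 were present in the table. RNA was sequenced from Achilles tendon tissue after Achilles tendon amputation (titled HO) in 3 libraries and after a sham operation (titled Control) in 3 libraries. The series title places the work in research on KLF2, PPARγ and mitochondria in trauma-induced heterotopic ossification, the formation of bone in soft tissue. All samples are labelled as mouse tendon total RNA. The sources used here give no genotype, strain, age, sex or time after surgery, and do not say whether each library came from a separate animal. The p-values therefore reflect the spread between libraries alone, which may be technical.

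Wnt proteins are lipid-modified secreted signals. In the β-catenin branch they join a Frizzled receptor to the co-receptors LRP5 or LRP6, β-catenin escapes degradation, and TCF/LEF factors switch on targets such as Axin2, several of which feed back to dampen the signal. In other branches Wnts act through Frizzleds with ROR2, RYK or PTK7 on cell polarity and movement. In the skeleton the system guides cartilage and bone formation, and sclerostin and the Dickkopf protein DKK1 are known brakes on bone growth.

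The libraries held 28410231, 30715022 and 31346730 counts in amputation 1 to 3, and 23916839, 26176650 and 27140226 in sham 1 to 3. A panel of 20 skeletal muscle markers took 1.55%, 0.496% and 14.9% of counts in amputation 1 to 3, against 18.4% to 20.3% in sham, and none of the 20 was called. Amputation 3 therefore stood apart from amputation 1 and 2 and near sham in its muscle RNA. The 10 tenocyte markers, with Tnmd, Scx and Col1a1 among them, were detected in all 6 libraries. They took 3.95% to 10.3% of counts after amputation and 0.439% to 1.17% in sham (5 higher). Col1a1 had 11900, 14600 and 5530 FPKM (counts scaled by gene length and library total) after amputation, against 948, 830 and 350 in sham. Mkx, Fmod, Egr1, Tppp3 and Comp, which is also in the chondrocyte list, overlapped between the groups. Of the tested markers of other cells, 8 of 9 for chondrocytes, 3 of 8 for osteoblasts, 7 of 7 for macrophages and 6 of 6 for proliferation were higher, while 8 of 8 for adipocytes and 3 of 7 for endothelium were lower. Chondrocyte markers took 0.45% to 1.68% of counts after amputation and 0.0411% to 0.152% in sham, and macrophage markers 0.0733% to 0.0942% and 0.0216% to 0.0272%. Osteoblast markers took 0.0523% to 0.229% and 0.0127% to 0.0445%, proliferation markers 0.00701% to 0.0125% and 0.00115% to 0.00133%, adipocyte markers 0.0291% to 0.0917% and 0.244% to 0.361%, and endothelial markers 0.0419% to 0.067% and 0.0887% to 0.104%. The osteoblast markers did not move together. Spp1 had 919, 1260 and 282 FPKM after amputation, against 140, 122 and 40 FPKM in sham. Ibsp had 46.8, 31.3 and 2.43 FPKM, against 79.9, 52.3 and 10.2 FPKM in sham, and Alpl overlapped between the groups. The osteocyte marker Mepe and the chondrocyte marker 3110079O15Rik (Snorc) had no count in at least 1 library. In bulk tissue, fewer cells of a type and less RNA per cell cannot be told apart, and the part of these other cells in the Wnt results was not tested beyond the muscle covariate given below.

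After amputation the Wnt system kept its summed ligand level but changed in make-up. Wnt16, Lgr6, Lgr5, Dkk3, Rspo2, Sfrp1 and Ror2 rose most, and Sfrp5, Wif1, Wnt6, Fzd9, Fzd4, Wnt11, Dkk2 and the β-catenin target Axin2 fell. Of the 60 genes, 49 had enough counts to be tested, 18 were higher, 9 were lower and 22 were not called (n = 3 per group). A gene was called where its adjusted p, from the quasi-likelihood test of edgeR adjusted by Benjamini-Hochberg across every tested gene, was under 0.05. The same test called 32.7% of all 14561 tested genes, 20.4% higher and 12.3% lower, against 55.1% of the tested Wnt genes. The Wnt genes were chosen with earlier results of these data known, so the shares are not an independent comparison. The median log2 fold change was 0.02 over the 49 Wnt genes and -0.02 over all tested genes. Of the 27 called, 23 changed at least 2-fold, and Fzd6, Lrp6, Ryk and Lgr4 changed less. The groups did not overlap in normalised counts for any of the 27, nor for 8 of the 22 that were not called. That made 20 genes without overlap on the higher side and 15 on the lower, against 28.7% and 26.1% of all tested genes, or 54.8% together. The count filter can be passed through a single group, which favours separation in genes near its limit. Among these, Wnt16 had 10, 3 and 7 counts in sham. Wnt9b had 4, 4 and 14 and Rnf43 6, 11 and 17 after amputation. Without a filter the same 27 Wnt genes were called. An unadjusted p under 0.05 was reached by 35 of the 49 Wnt genes and by 6855 of the 14561 genes tested. Of the called genes, Wnt11, Fzd6, Sfrp2 and Axin2 share exon sequence with a gene on the other strand, and their values are uncertain to that extent.

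**Figure D1:**
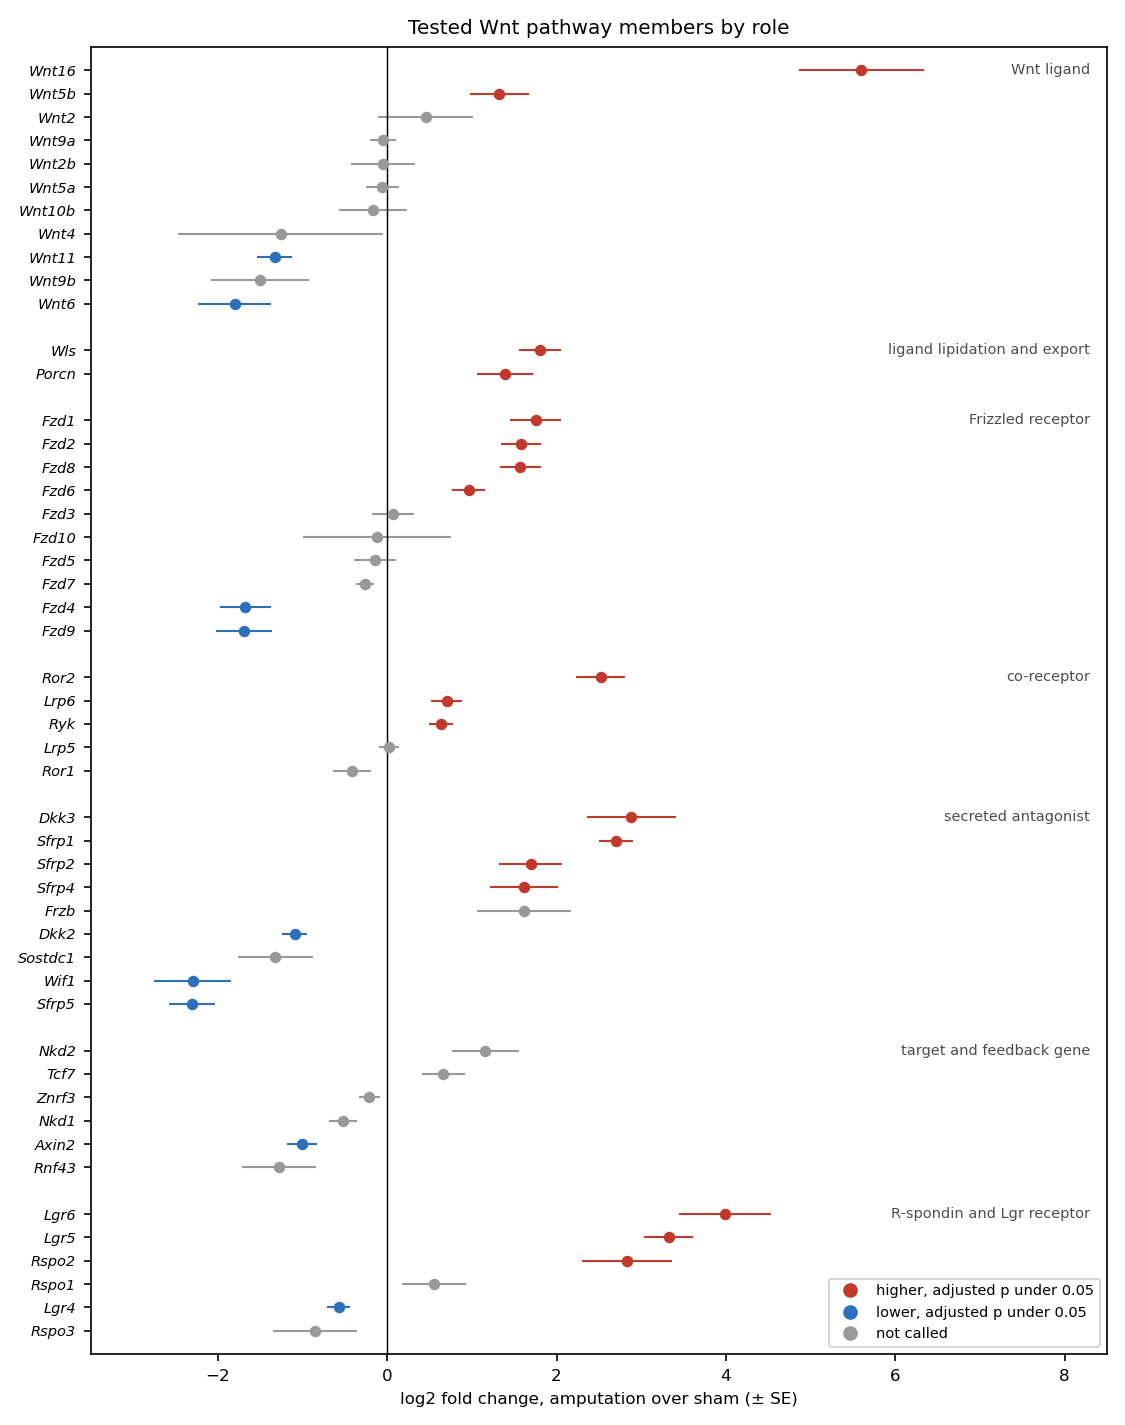
Log2 fold change of amputation over sham for the 49 tested Wnt genes, grouped by role and sorted within it, with bars of ± 1 SE from 3 libraries per group. Red marks the 18 called higher, blue the 9 called lower and grey the 22 not called; members of most roles lie on either side of 0, and Wnt16 lies farthest to the right at 5.60.

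Promoter windows of 5 called genes are shown. Wnt16 rose and Wnt11 fell among ligands, Fzd1 rose among Frizzleds, Ror2 rose among co-receptors, and Axin2 is the textbook β-catenin target. Each window runs from 250 bases before to 50 bases after an annotated start (RefSeq, GRCm38.p6), is written 5′ to 3′ on the gene's strand, and carries in capitals any match to the TCF/LEF core letters CTTTGA or CTTTGT on either strand. Of the 60 genes, 40 had at least 1 window in the table, and 11 of these held a match. A match was present in 31.2% of all 32851 windows of this length, and in 11 of the 48 windows of Wnt genes, or 22.9%. Among genes with a window, 3 of 8 called higher (Fzd1, Ror2 and Wnt5b) and 2 of 9 called lower (Wnt11 and Dkk2) held one. The Fzd1 matches began 242 and 37 bases before the start, that of Ror2 200 bases before it and that of Wnt11 50 bases before the start shown, while the window of a second Wnt11 start, chr7:98838595-98838894, held none. The windows of Wnt16 and Axin2 held neither letter run, nor did those of Fzd4 and Fzd9, which fell and are not shown. The Axin2 window lies inside the gene, whose annotated span begins at base 108917828. No window at that base was among those searched.
Wnt16, chr6:22287977-22288276, + strand: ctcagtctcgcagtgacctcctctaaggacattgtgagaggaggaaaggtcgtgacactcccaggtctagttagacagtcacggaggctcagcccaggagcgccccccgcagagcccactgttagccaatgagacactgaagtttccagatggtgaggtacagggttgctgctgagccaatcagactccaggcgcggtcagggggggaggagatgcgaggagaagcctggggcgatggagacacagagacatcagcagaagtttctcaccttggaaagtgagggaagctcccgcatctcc
Wnt11, chr7:98834862-98835161, + strand: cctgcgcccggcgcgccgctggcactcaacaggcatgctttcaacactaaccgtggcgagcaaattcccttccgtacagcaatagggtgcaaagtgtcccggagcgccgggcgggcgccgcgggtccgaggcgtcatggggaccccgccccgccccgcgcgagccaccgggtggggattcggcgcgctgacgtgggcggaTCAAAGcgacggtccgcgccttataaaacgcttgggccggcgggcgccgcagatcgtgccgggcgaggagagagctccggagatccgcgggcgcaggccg
Fzd1, chr5:4758167-4758466, - strand: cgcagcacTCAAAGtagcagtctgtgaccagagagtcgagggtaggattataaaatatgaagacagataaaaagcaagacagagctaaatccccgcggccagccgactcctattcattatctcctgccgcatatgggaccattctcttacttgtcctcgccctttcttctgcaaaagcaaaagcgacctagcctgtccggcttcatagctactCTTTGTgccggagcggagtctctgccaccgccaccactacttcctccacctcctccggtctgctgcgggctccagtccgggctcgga
Ror2, chr13:53286075-53286374, - strand: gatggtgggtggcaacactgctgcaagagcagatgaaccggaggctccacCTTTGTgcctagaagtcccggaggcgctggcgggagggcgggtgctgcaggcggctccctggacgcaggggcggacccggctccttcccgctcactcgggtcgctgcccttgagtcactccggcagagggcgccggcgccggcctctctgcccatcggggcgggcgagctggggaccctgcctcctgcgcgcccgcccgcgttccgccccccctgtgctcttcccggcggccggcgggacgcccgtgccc
Axin2, chr11:108920099-108920398, + strand: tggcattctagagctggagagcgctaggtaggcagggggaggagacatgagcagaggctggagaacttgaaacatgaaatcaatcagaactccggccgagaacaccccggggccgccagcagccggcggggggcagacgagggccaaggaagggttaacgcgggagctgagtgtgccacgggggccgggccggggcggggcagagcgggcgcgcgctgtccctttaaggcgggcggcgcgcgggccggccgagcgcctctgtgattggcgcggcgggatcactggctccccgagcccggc

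Among ligands, Wnt16 and Wnt5b rose, and Wnt6 and Wnt11 fell. Levels per library are FPKM, the authors' counts scaled by gene length and by library total. Wnt16 (chromosome 6, 22288178 to 22298522), a ligand known from cortical bone and synovial joints, had 2.19, 4.23 and 0.948 FPKM in amputation 1 to 3, against 0.0802, 0.022 and 0.0494 FPKM in sham 1 to 3. Every amputation library lay above every sham library, with amputation 2 highest, and sham held 3 to 10 counts per library. The log2 fold change was 5.60 ± 0.74 (SE), the largest of the 60 genes (adjusted p = 0.00551). Wnt5b, a ligand of the β-catenin-independent branches, had 3.61, 4.51 and 2.09 FPKM after amputation, against 1.8, 1.38 and 0.899 FPKM in sham. Its groups were separate but amputation 3 lay close to sham 1, and the change was log2 1.33 ± 0.35 (adjusted p = 0.0318).

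Wnt11, a ligand best known for directing cell movement in embryos, had 1.52, 0.894 and 1.37 FPKM after amputation, against 3.41, 3.16 and 2.87 FPKM in sham. It was low in all 3 amputation libraries, amputation 3 included, at log2 -1.33 ± 0.21 (adjusted p = 0.00745). Wnt6 had 0.381, 0.31 and 0.704 FPKM after amputation, against 2.35, 1.12 and 1.47 FPKM in sham, a log2 change of -1.80 ± 0.43 (adjusted p = 0.0245). Wnt16 and Wnt11 were called under all 17 alternative settings. Wnt5b and Wnt6 were not called without amputation 1 (log2 1.35 and -1.62), amputation 2 (1.03 and -1.60), sham 1 (1.55 and -1.49), sham 2 (1.31 and -2.04) or sham 3 (1.08 and -1.88), nor with the muscle covariate (0.58 and -1.10).

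The summed level of the 18 ligands was close between the groups, at 19.5 ± 1.41 FPKM after amputation and 20 ± 1.98 FPKM in sham (SD, n = 3 each). Wnt9a, known from joint formation, was the most abundant ligand in both groups, with 5.93, 5.96 and 6.03 FPKM in amputation 1 to 3, against 6.7, 6.95 and 4.93 FPKM in sham 1 to 3. Its groups overlapped, at log2 -0.05 ± 0.15 (adjusted p = 0.822). After amputation the next ligands by mean level were Wnt5b at 3.4, Wnt16 at 2.46 and Wnt5a at 2.17 FPKM, whose ranges over libraries overlapped. In sham they were Wnt11 at 3.15, Wnt5a at 2.25 and Wnt4 at 2.15 FPKM, where Wnt11 lay above the rest and Wnt5a and Wnt4 overlapped. Wnt16 supplied 5.28% to 20.4% of summed ligand FPKM after amputation and 0.111% to 0.364% in sham, while Wnt11 supplied 4.31% to 7.7% and 15.5% to 16%.

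Wnt4 divided the amputation libraries. This ligand, a regulator of kidney and gonad development that is also known from muscle fibres, had 0.11, 0.0596 and 2.43 FPKM in amputation 1 to 3, against 1.86, 1.86 and 2.72 FPKM in sham. Amputation 3 lay within the sham range, and amputation 1 and 2 far below it. Muscle marker shares were 1.55%, 0.496% and 14.9% of counts in amputation 1 to 3. The part of muscle in the Wnt4 values was not tested, because muscle share and group were nearly confounded over these libraries. The log2 fold change was -1.25 ± 1.21 with all libraries (adjusted p = 0.434), -4.70 without amputation 3 (adjusted p = 5.71e-05) and 0.65 with the muscle covariate. Wnt9b was likewise not called (-1.50 ± 0.58, adjusted p = 0.0885) except without amputation 3 (-2.36). The remaining tested ligands Wnt2, Wnt2b, Wnt5a and Wnt10b overlapped between groups, with log2 values of 0.46 ± 0.56, -0.05 ± 0.38, -0.05 ± 0.20 and -0.17 ± 0.40. Wnt1, Wnt3, Wnt3a, Wnt7a, Wnt7b, Wnt8a and Wnt10a were not tested for want of counts. Wnt3a had no count in any library, which allows up to 0.0957 to 0.125 CPM (3 counts per library, counting error only). Wnt7b, with 11, 22 and 7 counts after amputation and 0, 2 and 5 in sham, and Wnt10a, with 1, 2 and 5 and 18, 4 and 15, were called only without amputation 3, which lowers the filter to 2 libraries.

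Both genes that prepare ligands for release rose. Wls (chromosome 3, 159839650 to 159938666), the carrier that takes lipidated Wnts to the cell surface, had 78.3, 86.4 and 45.2 FPKM after amputation, against 18.9, 21.2 and 19.5 FPKM in sham, a log2 change of 1.81 ± 0.25 (adjusted p = 0.00571). Porcn, the acyltransferase that attaches the lipid, had 9.28, 11.7 and 4.49 FPKM, against 3.31, 3.18 and 3.15 FPKM in sham, a log2 change of 1.39 ± 0.33 (adjusted p = 0.0239). The groups were separate for each, and amputation 3 was the lowest amputation library for each. Wls was called under all alternatives. Porcn was not called without amputation 1 (1.39), amputation 2 (1.04), sham 1 (1.39), sham 2 (1.35) or sham 3 (1.36), nor with the muscle covariate (0.44).

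Frizzled receptors exchanged ranks. Fzd1, Fzd2, Fzd8 and Fzd6 rose, Fzd4 and Fzd9 fell, and Fzd3, Fzd5, Fzd7 and Fzd10 were not called. Fzd1 (chromosome 5, 4753839 to 4758216) had 46.4, 47.5 and 23.8 FPKM after amputation, against 14.1, 12.1 and 8.57 FPKM in sham, at log2 1.75 ± 0.30 (adjusted p = 0.00931). Fzd4 (chromosome 7, 89404366 to 89410110), also the receptor for Norrin in blood vessels, had 17.9, 8.78 and 19.1 FPKM after amputation, against 42.6, 54.3 and 48.3 FPKM in sham, at log2 -1.68 ± 0.30 (adjusted p = 0.0108). Every amputation library was below every sham library for Fzd4 and above every one for Fzd1. Fzd9 (chromosome 5, 135248938 to 135251047) had 10.5, 10.9 and 20.4 FPKM, against 46, 39 and 51.3 FPKM in sham, at log2 -1.69 ± 0.33 (adjusted p = 0.013), with amputation 3 nearest to sham.

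Fzd2 had 13.9, 14.4 and 9.35 FPKM after amputation, against 5.35, 4.2 and 3.06 FPKM in sham, at log2 1.58 ± 0.24 (adjusted p = 0.00687). Fzd8 had 14.9, 19.1 and 12.6 FPKM, against 6.52, 5.39 and 3.82 FPKM in sham, at log2 1.57 ± 0.24 (adjusted p = 0.0071). Fzd6, a receptor of the planar polarity branch, had 8.86, 9.78 and 5.96 FPKM, against 4.06, 4.73 and 3.77 FPKM in sham, at log2 0.97 ± 0.20 (adjusted p = 0.0148). All 3 receptors were separate between the groups. Fzd6 was not called without sham 1 (0.93), sham 2 (1.03) or sham 3 (0.88), nor with the muscle covariate (0.51), whereas Fzd1, Fzd2, Fzd4, Fzd8 and Fzd9 were called under all alternatives.

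By level, Fzd1 was the most abundant Frizzled after amputation at 39.2 ± 13.4 FPKM, while Fzd4 at 48.4 ± 5.81 and Fzd9 at 45.4 ± 6.18 FPKM led in sham with overlapping ranges. The ratio of Fzd1 to Fzd4 was 2.6, 5.41 and 1.25 in amputation 1 to 3, against 0.332, 0.222 and 0.177 in sham 1 to 3. Fzd7, another abundant receptor, had 17.5, 16.1 and 16.6 FPKM, against 20, 20.8 and 19.3 FPKM in sham, at log2 -0.26 ± 0.11 (adjusted p = 0.103; called without amputation 3, at -0.30, and in DESeq2, at -0.27). Fzd10 had 44, 6 and 131 counts after amputation and 57, 73 and 38 in sham, and spread more among the amputation libraries than between the groups (-0.12 ± 0.88). Fzd3 and Fzd5 overlapped, at 0.07 ± 0.25 and -0.14 ± 0.25, and Fzd5 was called with the muscle covariate (-0.82). The 10 receptors summed to 127 ± 12.7 FPKM after amputation and 145 ± 1.99 FPKM in sham.

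**Figure D2:**
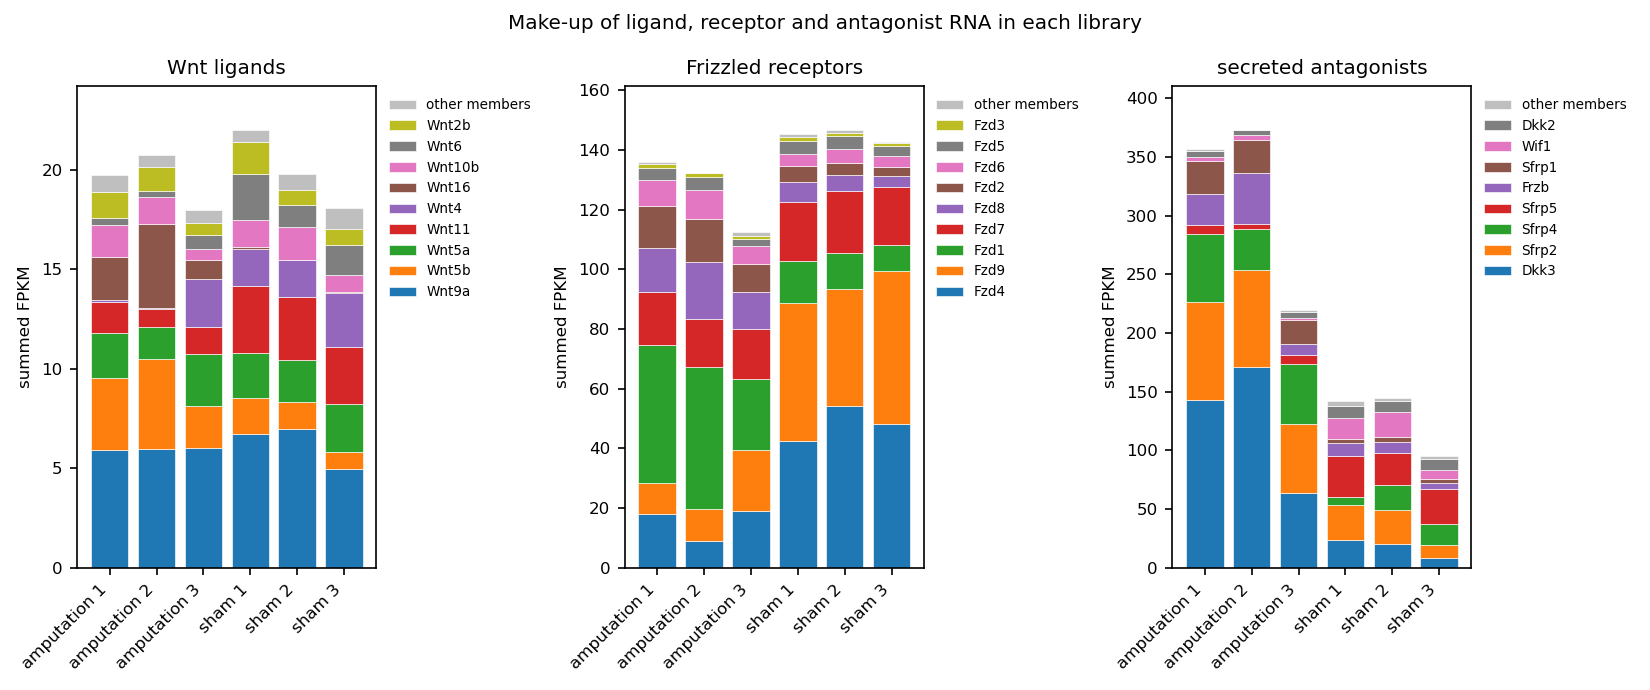
Stacked bars of FPKM summed over the 18 ligands (left), 10 Frizzled receptors (middle) and 11 secreted antagonists (right) in each library, amputation libraries first. Ligand sums lie between 18 and 22 FPKM in all 6 libraries, the FPKM ratio of Wnt16 to Wnt11 is 1.44, 4.73 and 0.692 in amputation 1 to 3 and 0.00696 to 0.0235 in sham, Fzd1 takes 21.2% to 35.9% of Frizzled FPKM after amputation against 6% to 9.73% in sham, and antagonist sums reach 220 to 373 FPKM against 94.9 to 144.

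Of the co-receptors, Ror2, Lrp6 and Ryk rose and Lrp5 and Ror1 were not called. Ror2, a receptor tyrosine kinase for Wnt5a with a known part in cartilage and limb formation, had 6.38, 6.15 and 2.95 FPKM after amputation, against 0.885, 0.895 and 0.882 FPKM in sham. The sham libraries agreed closely and all amputation libraries lay above them, at log2 2.52 ± 0.29 (adjusted p = 0.00432). Lrp6 had 52.3, 49 and 38 FPKM, against 31.7, 28.2 and 25.3 FPKM in sham, at log2 0.70 ± 0.18 (adjusted p = 0.0315). Ryk had 29.6, 33.7 and 26.1 FPKM, against 19.4, 18.4 and 19.5 FPKM in sham, at log2 0.64 ± 0.14 (adjusted p = 0.0192). The groups were separate for each. Lrp5, the co-receptor whose human mutations alter bone mass, had 25.4, 22.1 and 20.6 FPKM, against 22.6, 23.4 and 20.7 FPKM in sham, and overlapped, at log2 0.02 ± 0.11 (adjusted p = 0.896). Ror1, the paralog of Ror2, stood at -0.42 ± 0.23 (adjusted p = 0.191), and the ratio of Ror2 to Ror1 FPKM was 4.47, 7.17 and 2.8 after amputation against 0.5, 0.559 and 0.836 in sham. Ror2 was called under all alternatives. Lrp6 was not called without amputation 1 (0.68), amputation 2 (0.63), sham 1 (0.77), sham 2 (0.67) or sham 3 (0.61) or with the muscle covariate (0.47), nor Ryk without sham 1 (0.63), sham 2 (0.59) or sham 3 (0.65) or with the covariate (0.45).

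Secreted antagonists moved in both directions. The secreted Frizzled-related proteins, which bind Wnts through a Frizzled-like domain, gave 3 increases (Sfrp1, Sfrp2 and Sfrp4) and a decrease (Sfrp5). Sfrp1 had 28.4, 28.8 and 20.1 FPKM in amputation 1 to 3, against 3.31, 4.55 and 3.93 FPKM in sham 1 to 3. All amputation libraries lay far above sham, at log2 2.70 ± 0.20, with the smallest adjusted p of the 60 genes at 0.00272. Sfrp5 had 7.1, 3.84 and 7.72 FPKM after amputation, against 34.4, 27.2 and 30.2 FPKM in sham, at log2 -2.30 ± 0.27 (adjusted p = 0.0044). The ratio of Sfrp1 to Sfrp5 FPKM was 4, 7.5 and 2.6 after amputation and 0.0964, 0.167 and 0.13 in sham.

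Sfrp2 had 83.4, 82.9 and 58.8 FPKM after amputation, against 29.3, 29.3 and 11 FPKM in sham, at log2 1.70 ± 0.37 (adjusted p = 0.0185). Sfrp4 had 58.4, 35 and 51.2 FPKM, against 7.44, 21.1 and 18 FPKM in sham, at log2 1.62 ± 0.40 (adjusted p = 0.0268). Groups were separate for each, with sham 3 lowest for Sfrp2 and sham 1 lowest for Sfrp4. Frzb, the family member also called Sfrp3 and known from cartilage, had 26.6, 43.3 and 9.76 FPKM, against 11.6, 9.67 and 4.95 FPKM in sham, and overlapped, since amputation 3 lay below sham 1. Its log2 fold change of 1.61 ± 0.56 was not called (adjusted p = 0.066), but was with the replicate number as a block (1.44), in DESeq2 (1.62) and without amputation 3 (2.0). Sfrp2 was not called without amputation 1 (1.68), amputation 2 (1.59) or sham 2 (1.88) or with the muscle covariate (1.37), nor Sfrp4 without amputation 1 (1.53), sham 2 (1.87) or sham 3 (1.73). Sfrp1 and Sfrp5 were called under all alternatives.

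Dkk3, a divergent Dickkopf whose effect on Wnt signalling differs between systems, was the most abundant Wnt gene after amputation. It had 143, 171 and 63.5 FPKM in amputation 1 to 3, against 23.8, 19.7 and 7.8 FPKM in sham 1 to 3, at log2 2.88 ± 0.52 (adjusted p = 0.0112; not called without sham 2, at 2.97). Dkk2, a Dickkopf that binds LRP5 and LRP6, had 5.1, 3.77 and 5.24 FPKM, against 10.3, 9.91 and 9.82 FPKM in sham, at log2 -1.09 ± 0.15 (adjusted p = 0.00571). Wif1, which binds Wnts directly and is known from cartilage borders, had 3.3, 4.12 and 1.84 FPKM, against 17.9, 20.7 and 7.15 FPKM in sham. It was low in all 3 amputation libraries, at log2 -2.30 ± 0.45 (adjusted p = 0.0138; not called without amputation 1, at -2.28, or sham 2, at -2.04). Dkk2 was called under all alternatives. Wif1 was lowest in amputation 3 among the amputation libraries and in sham 3 among the sham libraries. Sostdc1, an antagonist of both BMPs and Wnts, had 1.19, 0.521 and 1.46 FPKM, against 3.89, 1.99 and 2.06 FPKM in sham, and was not called (-1.32 ± 0.44, adjusted p = 0.061) except with the replicate block (-1.37), in DESeq2 (-1.33), on log2(FPKM + 1) (-0.82) and without amputation 3 (-1.69). Sost, the sclerostin gene of osteocytes, had 8, 0 and 0 counts after amputation and 18, 4 and 0 in sham, and Dkk1 had 5, 3 and 0 and 1, 3 and 2, so neither was tested. The 11 antagonists summed to 317 ± 84.4 FPKM after amputation and 127 ± 27.9 FPKM in sham.

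**Figure D3:**
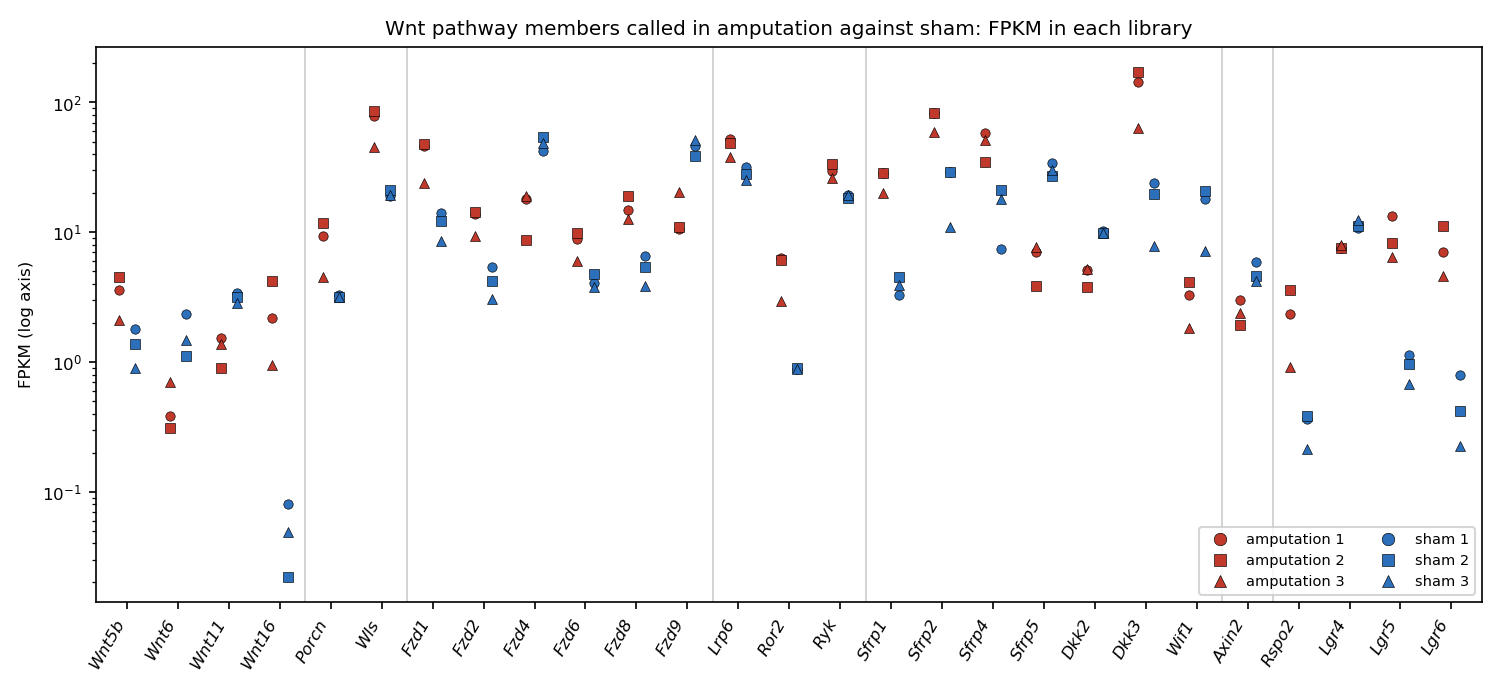
FPKM on a log axis in each library for the 27 called Wnt genes, with amputation libraries in red on the left of each gene and sham libraries in blue on the right; circles, squares and triangles are replicates 1, 2 and 3, and grey lines part the roles. The groups do not overlap for any gene shown, and the red triangle of amputation 3 lies nearest to sham for most of them, with Wnt11, Axin2, Sfrp4 and Wif1 as the exceptions on this FPKM scale.

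Target and feedback genes did not move together. Axin2 (chromosome 11, 108917828 to 108950783), the scaffold of the β-catenin destruction complex that is induced by the pathway it restrains, was the only one of the 6 tested that the reported fit called. It had 3.03, 1.94 and 2.4 FPKM in amputation 1 to 3, against 5.86, 4.64 and 4.22 FPKM in sham 1 to 3. All 3 amputation libraries were below sham, amputation 3 no nearer than amputation 1, at log2 -1.01 ± 0.17 (adjusted p = 0.00986). The call was kept without each library in turn and lost with the muscle covariate, at -0.87 (adjusted p = 0.057). Rnf43 and Znrf3, the ubiquitin ligases that clear Frizzleds from the cell surface, stood at -1.28 ± 0.44 and -0.21 ± 0.12 (adjusted p = 0.0647 and 0.216). Nkd1 and Nkd2, which bind Dishevelled, stood on opposite sides of 0. Nkd1 had 2.34, 2.07 and 1.67 FPKM, against 3.23, 3.1 and 2.35 FPKM in sham, at -0.52 ± 0.17 (adjusted p = 0.0545). Nkd2 had 9.93, 13 and 5.74 FPKM, against 5.99, 4.49 and 2.4 FPKM in sham, at 1.16 ± 0.395 (adjusted p = 0.0639). With the replicate number as a block Nkd1 and Nkd2 were called, at -0.52 and 1.17, and Nkd2 and Rnf43 were called without amputation 3, at 1.41 and -1.69. Nkd1 was also called with muscle genes out of library sizes, at -0.55, and Rnf43 with limma on log2(FPKM + 0.1), at -0.69. The Wald test of DESeq2 called Nkd1 (-0.52, adjusted p = 0.0348), Nkd2 (1.17, adjusted p = 0.0169) and Rnf43 (-1.30, adjusted p = 0.0358) as well as Axin2. Tcf7, a transcription factor of the pathway, had 1.59, 0.928 and 0.909 FPKM, against 0.749, 0.782 and 0.606 FPKM in sham (0.66 ± 0.25, adjusted p = 0.0856). Lef1, its relative and a target, had 15, 15 and 10 counts after amputation and 7, 6 and 1 in sham, and Notum, the enzyme that strips the lipid from Wnts, had 4, 18 and 1 and 5, 0 and 1. Neither was tested, and at this depth a difference in them could not be assessed.

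R-spondins and their receptors held some of the largest increases. R-spondins are secreted proteins that keep Frizzleds on the cell surface by pairing Lgr receptors with RNF43 or ZNRF3. Lgr6 (chromosome 1, 134983300 to 135105374) had 6.99, 11.1 and 4.6 FPKM after amputation, against 0.799, 0.42 and 0.224 FPKM in sham, at log2 3.99 ± 0.54 (adjusted p = 0.00571). Lgr5 (chromosome 10, 115450314 to 115587780), best known as a marker of intestinal stem cells, had 13.4, 8.31 and 6.41 FPKM, against 1.14, 0.957 and 0.68 FPKM in sham, at log2 3.32 ± 0.29 (adjusted p = 0.00317). Every amputation library was above every sham library for each, and both were called under all alternatives. Rspo2 had 2.36, 3.58 and 0.916 FPKM, against 0.363, 0.387 and 0.213 FPKM in sham, at log2 2.83 ± 0.53 (adjusted p = 0.012; not called without sham 2, at 2.96, or sham 3, at 2.58).

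Lgr4, the most abundant of the 3 Lgr receptors in sham, fell. It had 7.58, 7.5 and 7.99 FPKM after amputation, against 10.8, 11.2 and 12.4 FPKM in sham, at log2 -0.57 ± 0.13 (adjusted p = 0.0218). The ratio of Lgr5 to Lgr4 FPKM was 1.77, 1.11 and 0.802 after amputation and 0.105, 0.0858 and 0.0549 in sham. Lgr4 was not called without amputation 1 (-0.50), amputation 2 (-0.58), sham 1 (-0.64), sham 2 (-0.62) or sham 3 (-0.52), nor with the muscle covariate (-0.47). Rspo1 overlapped between groups (0.55 ± 0.38). Rspo3 had 0.969, 0.448 and 1.86 FPKM, against 1.64, 2.1 and 2.21 FPKM in sham, and was not called (-0.85 ± 0.50, adjusted p = 0.217) except without amputation 3 (-1.55).

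Genes of the wider pathway were taken from 4 lists, chosen with earlier results of these data known. The shares called in these lists are therefore not an independent comparison with all tested genes. Of 35 intracellular genes, all tested, 2 were higher, 2 were lower and 31 were not called, a share of 11.4% against 32.7% of all tested genes, with a median log2 fold change of -0.025. Dact1 and Dact3, which bind Dishevelled, rose, with Dact1 at 17, 15.7 and 10.7 FPKM after amputation, against 7.22, 6.71 and 5.97 FPKM in sham (log2 1.12 ± 0.17), and Dact3 at log2 1.23 ± 0.26. Tle1, a corepressor of TCF factors, and Btrc, the β-TrCP subunit that marks β-catenin for degradation, fell by 0.75 ± 0.15 and 0.48 ± 0.12 on the log2 scale. Dact3 and Tle1 were not called without sham 2 (1.32 and -0.75) or with the muscle covariate (0.83 and -0.49), nor Btrc without amputation 1 (-0.43), amputation 2 (-0.45), sham 1 (-0.51), sham 2 (-0.46) or sham 3 (-0.53) or with the covariate (-0.33). Ctnnb1, which encodes β-catenin and was named here after its value was seen, stood at 141, 137 and 120 FPKM, against 96, 103 and 94 FPKM in sham, and was not called (0.44 ± 0.17, adjusted p = 0.0914). Without amputation 3 the counts of this list were 9 higher and 10 lower. Those of all genes rose as well, from 2968 higher and 1789 lower to 4212 and 4392.

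Of 18 tested planar cell polarity genes, 5 were higher and 4 lower, a share of 50% against 32.7% of all tested genes, with a median log2 fold change of 0.09. Ptk7, a co-receptor of that branch, had 15.1, 18.4 and 7 FPKM after amputation, against 1.91, 1.82 and 0.972 FPKM in sham, at log2 3.11 ± 0.42 (adjusted p = 0.00568). The core polarity genes Vangl2 (1.13 ± 0.24) and Vangl1 (1.08 ± 0.26) rose, and Celsr2 (-1.22 ± 0.18), Intu (-0.61 ± 0.15) and Scrib (-0.42 ± 0.105) fell. Without amputation 1 to 3 and sham 1 to 3 in turn, 1, 2, 6, 3, 1 and 1 genes of this list were higher and 1, 1, 5, 1, 1 and 2 lower, and with the muscle covariate 1 was higher and 1 lower. Calls over all genes in those fits numbered 2273, 2756, 8604, 2236, 1527 and 2157, and 2034 with the covariate, against 4757 in the reported fit. Ptk7 and Celsr2 kept their calls under all alternatives. Vangl2 was not called without amputation 1 (0.95), sham 2 (1.05) or sham 3 (0.98), and Vangl1 (0.90 to 1.15), Intu (-0.67 to -0.55) and Scrib (-0.47 to -0.38) were not called without amputation 1, amputation 2, sham 1, sham 2 or sham 3. Scrib also lost its call with upper quartile scaling (-0.37) and with limma on log2(FPKM + 1) (-0.37) and log2(FPKM + 0.1) (-0.41). None of Vangl1, Vangl2, Intu and Scrib was called with the muscle covariate.

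Of 21 tested further extracellular modulators, 7 were higher and 3 lower, a share of 47.6% against 32.7% of all tested genes, with a median log2 fold change of 0.39. Cthrc1, a secreted collagen-triple-helix protein reported to favour polarity signalling in mice, had 220, 293 and 107 FPKM after amputation, against 1.24, 0.735 and 0.857 FPKM in sham, at log2 7.77 ± 0.50 (adjusted p = 0.00238). Tpbg rose by log2 1.74 ± 0.20, and Igfbp4, an IGF carrier that can also bind Frizzled and LRP6, by 2.22 ± 0.37. Apcdd1, a membrane antagonist that is itself a β-catenin target, had 6.09, 4.28 and 4.4 FPKM, against 12.5, 14.3 and 15.2 FPKM in sham, at log2 -1.52 ± 0.15 (adjusted p = 0.00348). It was low in all 3 amputation libraries and called under all alternatives. Tspan12, the Fzd4 partner for Norrin signals, fell by 1.35 ± 0.26 on the log2 scale, in the same direction as Fzd4. Tspan12 was not called without sham 2 (-1.38) or with the muscle covariate (-0.84). Ndp, which encodes Norrin and was named here after its value was seen, overlapped between groups. It stood in the opposite direction and was not called (1.62 ± 0.70, adjusted p = 0.116). Shisa3 fell by 2.23 ± 0.60, and was not called without amputation 1 (-1.92), amputation 2 (-1.87), sham 1 (-2.12), sham 2 (-2.32) or sham 3 (-2.27).

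Of 14 tested genes listed as β-catenin targets, 5 were higher, 2 were lower and 7 were not called, a share of 50% called against 32.7% of all tested genes, with a median log2 fold change of -0.01. Wisp1, a matricellular protein of bone and fracture repair, had 12, 14.3 and 6.24 FPKM after amputation, against 1.99, 1.32 and 1.02 FPKM in sham, at log2 2.91 ± 0.37 (adjusted p = 0.0051). Twist1, a mesenchymal transcription factor, rose by 1.79 ± 0.29 and Cd44, a hyaluronan receptor, by 1.60 ± 0.29 (not called without sham 2, at 1.61). Tbx3, a limb transcription factor, had 3.26, 2.45 and 3.58 FPKM, against 8.15, 8.44 and 7.32 FPKM in sham, at log2 -1.36 ± 0.16 (adjusted p = 0.00454). Ascl2 fell by 1.74 ± 0.45 at low abundance, and was not called without amputation 1 (-1.67), amputation 2 (-1.86), sham 1 (-1.17) or sham 3 (-1.95) or with the muscle covariate (-1.92). It also lost its call with limma on log2(FPKM + 1), at -0.43. Genes of this list are also controlled by other pathways, and proliferation and macrophage markers rose in the same libraries; their part in these values was not tested.

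The size of the Wnt changes differed among the amputation libraries. Of the 27 called genes, 23 lay nearest to the sham mean in amputation 3 by normalised counts, or 85.2%, as did 74% of all 4757 called genes, and 22 lay farthest from it in amputation 2. Without amputation 3 the counts were 21 higher and 16 lower, and all 27 calls were kept. Those counts were 13 and 6 without amputation 1, 14 and 7 without amputation 2, 13 and 7 without sham 1, 9 and 6 without sham 2, and 11 and 7 without sham 3. Calls over all genes moved in the same direction, from 4757 with all libraries. They numbered 2273, 2756 and 8604 without amputation 1 to 3, and 2236, 1527 and 2157 without sham 1 to 3. With the log2 CPM of the muscle markers as a covariate, 12 Wnt genes were higher and 7 lower. In that fit 18 of the 27 calls were kept, and 2034 of all genes were called. That covariate was 13.9, 12.3 and 17.2 in amputation 1 to 3 and 17.5 to 17.6 in sham. Only amputation 3 lay near sham, so muscle share and group were nearly confounded. Calls kept or lost in that fit therefore rest largely on amputation 3. The 14 genes called under every alternative were Wnt11, Wnt16, Wls, Fzd1, Fzd2, Fzd4, Fzd8, Fzd9, Ror2, Sfrp1, Sfrp5, Dkk2, Lgr5 and Lgr6.

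**Figure D4:**
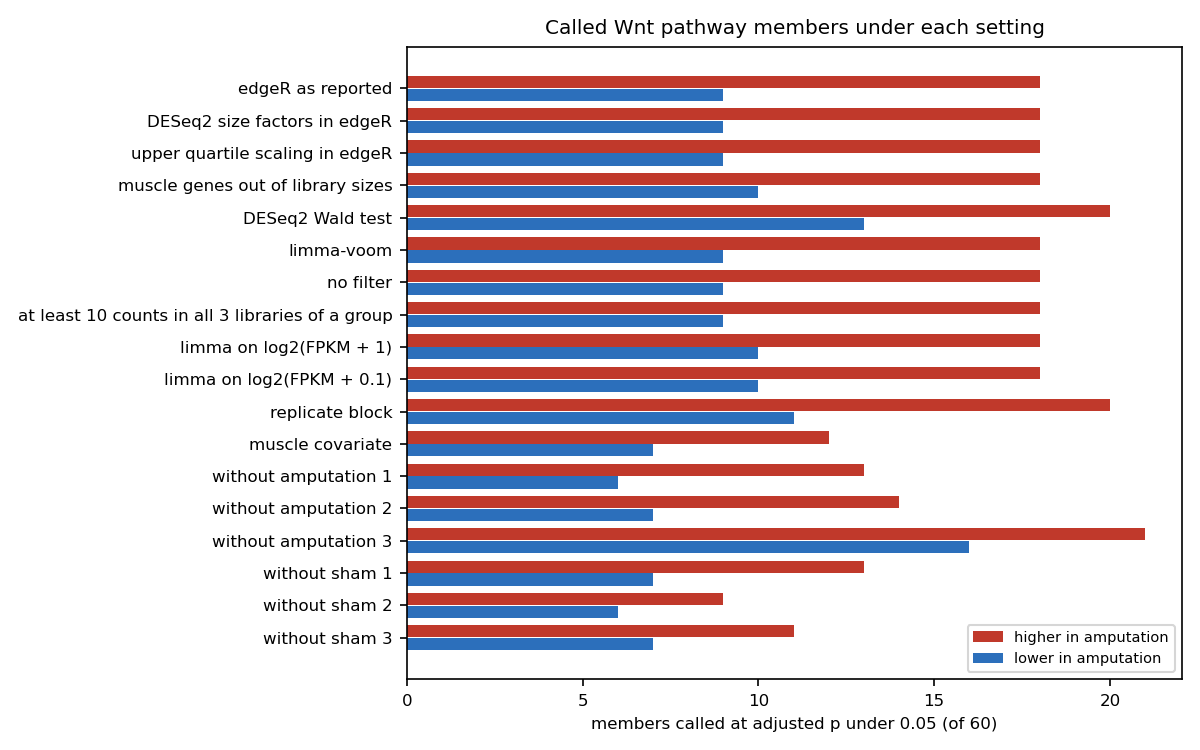
Number of the 60 Wnt genes called higher (red) and lower (blue) at an adjusted p under 0.05 with the reported edgeR fit and under each alternative setting. Counts stay at 18 to 20 higher under changes of scaling, filter, unit or tool and with the replicate block, and reach their lowest, 9 higher and 6 lower, without sham 2 and their highest, 21 and 16, without amputation 3.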

How the data were processed

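Achilles tendon RNA was extracted with mirVana reagents and sequenced as ribosomal-RNA-depleted stranded libraries (TruSeq, Ribo-Zero Gold), per the labels' protocols. The submitters' processing notes name Trimmomatic, HISAT2 and the build GRCm38.p6. Neither the counting program nor its strand setting is given in the sources used here, and a gene may hold reads of another gene on the opposite strand. Of the called Wnt genes, Wnt11, Fzd6, Sfrp2 and Axin2 share exon sequence with an annotated gene on the other strand (GENCODE annotation of GRCm38), and none shares it on the same strand. The deposited count table held whole, unnormalized read counts per gene. Deposited FPKM were those counts scaled by gene length and library total: gene lengths worked out from the pair of tables were whole, to 0.01 bases, for 100% of the 15164 genes counted in every library.

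The count model was that of edgeR 4.0.16 in R 4.3.3. The filterByExpr function left 14561 genes to test and 7317 untested, libraries were scaled by TMM (factors 0.951 to 1.092), and amputation was compared with sham by the quasi-likelihood test, with p-values adjusted by Benjamini-Hochberg over the whole table. The SE of a log2 fold change is its size over the square root of F. A single count was 0.0319 to 0.0418 CPM. No library was a duplicate of another: even the most alike, sham 1 and 2, had a chi-square per gene of 15.6. Deviations from the group means of libraries with the same number correlated at 0.259, 0.13 and 0.409 for numbers 1 to 3, and those of libraries with different numbers at -0.332 to 0.244, where amputation 2 correlated more with sham 1 than with sham 2. The labels state no pairing, and the numbers were treated as a possible pairing because every matched value was over 0.1; the fit without the block is the one reported. On data simulated for this comparison with 14561 genes, 78% of 100 genes changed 4-fold and 7% of 100 changed 2-fold were called, with 7 unchanged genes called. Only those 4-fold and 2-fold genes were changed in the simulation, while 4757 genes were called in the data. The Benjamini-Hochberg cut on p was therefore not alike, and these shares do not give the detection rate in the data. Alternatives were DESeq2 1.42.0 (size factors or Wald test), upper quartile scaling, muscle genes left out of library sizes, limma 3.58.1 (voom, or log2(FPKM + 1) and log2(FPKM + 0.1)), no filter, a minimum of 10 counts throughout a group, the replicate block, the log2 CPM of muscle markers as a covariate, and each library left out. Members, lists and alternatives were chosen with earlier results of these data known. Values in every library are given for each called member and the most abundant member of each role. Of each other list, up to 3 called genes per direction with the smallest p are named, some with a log2 fold change only. A further marker list is not reported here. Promoters are from RefSeq tables of GRCm38.p6.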

Additional observations from a re-analysis of the deposited data

How the results depend on the processing

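No called Wnt gene changed sign under any of the 17 alternatives, and of 1189 single-gene values under alternatives 1041 kept direction and side of the threshold, 100 lost a call, 22 gained one and 26 changed sign. The libraries limit these calls: with n = 3 per group, 15 of the 27 called Wnt genes were called without each library in turn, the labels give no time or animal, and amputation 1 and 2 differ from amputation 3 in muscle share. At this depth 11 Wnt genes were too low to test.

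Leaving out each library in turn gave 9 to 21 higher and 6 to 16 lower Wnt genes, 1091 to 4212 higher and 436 to 4392 lower of all genes, 1 to 9 higher and 0 to 10 lower intracellular genes, 1 to 6 higher and 1 to 5 lower polarity genes, 3 to 12 higher and 1 to 6 lower extracellular modulators, and 2 to 5 higher and 1 to 4 lower targets. With the muscle covariate, 1442 of all genes were higher and 592 lower. Intracellular genes gave 1 higher and 0 lower, polarity genes 1 and 1, extracellular modulators 3 and 3, and targets 4 and 1. DESeq2's Wald test called 3362 of all genes higher and 2776 lower, and 4 intracellular genes higher and 6 lower. Upper quartile scaling called 5 polarity genes higher and 2 lower, and limma on log2(FPKM + 1) called 5 targets higher and 1 lower. With the replicate block 20 Wnt genes were higher and 11 lower, with Frzb, Sostdc1, Nkd1 and Nkd2 gained, and it changed no other call of a Wnt gene named in the text. It moved the other counts given here by no more than 1.5 times.

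Changes of sign all concerned genes that were not called. With the muscle covariate, log2 values were 0.65 for Wnt4, 0.35 for Wnt5a, -0.19 for Fzd3, 1.42 for Fzd10, -0.039 for Lrp5, -0.15 for Rspo1 and 0.17 for Rspo3. Lrp5 was at -0.006 with muscle genes out of library sizes and -0.003 without a filter, and Wnt2b and Wnt9a at 0.014 and 0.002 with upper quartile scaling. Over the fits without 1 library, values ran from -0.26 to 0.34 for Wnt2b, -0.26 to 0.094 for Wnt5a, -0.20 to 0.021 for Wnt9a, -0.41 to 0.15 for Wnt10b, -0.13 to 0.35 for Fzd3, -0.38 to 0.08 for Fzd5, -1.41 to 0.40 for Fzd10 and -0.038 to 0.052 for Lrp5. The cause of these changes was not tested.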
